A study of Homo sapiens with 11 samples.

Results

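Replication-dependent histone genes were followed in RNA-seq counts of LX-2 cells, an established human hepatic stellate cell line. The members were all rows of the count file with a symbol of the series H1-1 to H1-6, H2AC, H2BC, H3C or H4C followed by a number, which gave 66 of 35303 genes. They comprised 6 H1, 16 H2A, 17 H2B, 13 H3 and 14 H4 genes. No count was recorded for 3 members (H2AC1, H3C14 and H3C15), and 59 had a total of at least 10 counts over the 9 libraries. The filter on low counts kept 40 members among 16117 tested genes, and the other 26 are described only by their levels.

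The groups were HIV-1+LTA, HIV-1 and PBS, sampled after 24 h; the sample labels name PBS for the controls, while the series text speaks of medium. Virus was HIV-1BaL at an MOI (infectious units per cell) of 0.1, and LTA, the lipoteichoic acid of Gram-positive cell walls, was added at 1 ug/ml. Each group had 3 libraries, and the labels make the replicate number the batch number, so each of batches 1, 2 and 3 held 1 library per group. All libraries came from the same line, labelled wild type, and no group received LTA without virus. Whether the libraries of a group came from separate cultures is not stated, so p-values here measure only how far these libraries spread, and that spread may be technical. Library totals ran from 50.6 to 90.6 M counts.

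Histone mRNAs of this class are made in S phase, when new DNA needs new nucleosomes. H3 with H4, and H2A with H2B, form the core particle, and H1 binds the linker DNA. Unlike other mRNAs they normally end without a poly(A) tail, in a short stem-loop that is bound by SLBP, and NPAT drives their transcription; some of the genes can also give polyadenylated transcripts. Their capture therefore depends on how a library selects RNA. The labels name total RNA but give no poly(A) or ribosomal RNA step.

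The 3 libraries of batch 3 stood apart in these genes. Levels are given as CPM, counts scaled to the library size with TMM factors. Summed over all members, batch 3 reached 202 CPM with HIV-1+LTA, 211 CPM with HIV-1 and 174 CPM with PBS. In batches 1 and 2 the sums were 462 and 416 CPM with HIV-1+LTA, 478 and 448 CPM with HIV-1, and 458 and 399 CPM with PBS. The batches did not overlap, whereas the groups did: the means were 360 ± 139 CPM with HIV-1+LTA, 379 ± 146 CPM with HIV-1 and 344 ± 150 CPM with PBS (SD, n = 3 each). Of 12 stellate markers, 8 were above 1 CPM in every library, among them COL1A1 (794 to 1430 CPM), COL1A2 (33.2 to 323 CPM), ACTA2 (72.0 to 218 CPM), PDGFRB (32.3 to 50.7 CPM) and VIM (539 to 3130 CPM). DES and HGF stayed under 1 CPM, and DCN (0 to 2.54 CPM) and LUM (0 to 8.62 CPM) were at 0 in at least 1 library. The 4 hepatocyte markers summed to at most 0.254 CPM, the 6 macrophage and T cell markers to at most 1.40 CPM, the 3 endothelial markers to at most 0.859 CPM and the 3 cholangiocyte markers, mainly KRT7, to at most 7.72 CPM. In bulk RNA, fewer cells in S phase, less histone mRNA per cell and a different capture of these mRNAs cannot be told apart. None of them was tested.

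**Figure D1:**
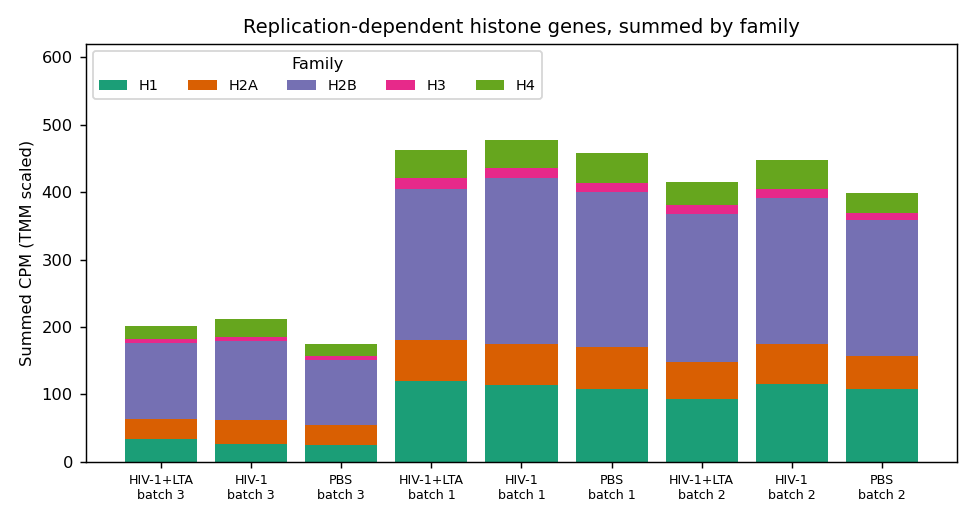
Stacked bars give the summed CPM (TMM scaled) of all 66 members in each of the 9 libraries, coloured by family; libraries are ordered by batch and, within a batch, HIV-1+LTA, HIV-1 and PBS. The 3 bars of batch 3 lie between 174 and 211 CPM and the other 6 between 399 and 478 CPM.

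The feature that sets these mRNAs apart was looked for in the genome, since it bears on how they are counted. In the hg19 sequence with GENCODE gene models, 63 members were found, 52 on chromosome 6 and 11 on chromosome 1. A perfect 6-base-pair stem with a 4-base loop (GG at the start, TT opening the loop, CC at the end) lay within 100 bases after the stop codon in 58 of them (92.1%), against 5 of 3050 other protein-coding genes of chromosomes 1 and 6 (0.164%). The stem-loop began 22 to 67 bases after the stop codon. It had 5 distinct forms, the most common in 37 members, and the 2 forms with a GGCCC stem were found in 8 and 4 members, all of them H4 genes. The stem-loops of the 6 most abundant members and of H4C5 follow, on the strand of the gene, with the 16-base stem and loop in capitals. They are shown as examples of the element. In batch 3 the 6 were lower and H4C5 was higher, a call that ended without the HIV-1+LTA library of batch 3. Whether the element bears on these differences was not tested.
H2BC12, chr6:27114140-27114165, minus strand: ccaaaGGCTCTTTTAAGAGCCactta
H1-2, chr6:26055967-26055992, minus strand: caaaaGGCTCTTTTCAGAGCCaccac
H2AC6, chr6:26124892-26124917, plus strand: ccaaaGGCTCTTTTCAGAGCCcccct
H2BC11, chr6:27100095-27100120, minus strand: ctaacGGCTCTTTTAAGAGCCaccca
H4C8, chr6:26285354-26285379, minus strand: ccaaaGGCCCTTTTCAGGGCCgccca
H2BC21, chr1:149857733-149857758, minus strand: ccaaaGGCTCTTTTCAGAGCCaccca
H4C5, chr6:26205224-26205249, plus strand: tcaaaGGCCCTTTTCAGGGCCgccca

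Counts in this class, not divided by gene length, came mostly from a few genes. Of the members, 20 had a mean of at least 1 CPM and 7 a mean of at least 10 CPM: H2BC12, H1-2, H2AC6, H2BC11, H4C8, H2BC21 and H2BC5. The first 6 took 82.3% of all member counts, between 75.3% and 84.4% by library. By family, H2B genes gave 51.3% of the summed CPM, H1 22.9%, H2A 13.6%, H4 9.31% and H3 2.89%.

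H2BC12, an H2B gene, had 95.2, 103 and 52.9 CPM in the HIV-1+LTA libraries of batches 1, 2 and 3. It had 114, 100.03 and 49.5 CPM in the HIV-1 libraries of the same batches, and 95.3, 99.0 and 40.1 CPM in the PBS libraries. Batch 3 was lowest in each group and the groups overlapped. H1-2, a linker histone gene, had 118, 92.2 and 32.3 CPM with HIV-1+LTA, 112, 114 and 25.0 CPM with HIV-1, and 107, 107 and 23.2 CPM with PBS, in the same order of batches. Its groups overlapped too, and its batch 3 values lay far below all others.

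H2AC6, which encodes an H2A, had 52.9, 44.5 and 25.5 CPM with HIV-1+LTA, 52.5, 50.6 and 29.4 CPM with HIV-1, and 52.7, 41.3 and 26.1 CPM with PBS. H2BC11, an H2B gene, had 37.4, 32.1 and 22.7 CPM with HIV-1+LTA, 38.6, 35.3 and 26.2 CPM with HIV-1, and 41.0, 29.6 and 22.6 CPM with PBS. Both showed the same order of batches, 1 above 2 above 3, in every group. H4C8, an H4 gene, had 38.4, 30.5 and 17.0 CPM with HIV-1+LTA, 38.7, 38.8 and 22.7 CPM with HIV-1, and 40.3, 25.9 and 15.1 CPM with PBS. In batches 2 and 3 its HIV-1 library was the highest of the batch, while in batch 1 the PBS library was. H2BC21, an H2B gene of the chromosome 1 cluster, had 43.0, 38.8 and 7.39 CPM with HIV-1+LTA, 43.1, 34.6 and 6.35 CPM with HIV-1, and 43.98, 34.5 and 5.70 CPM with PBS. Its fold difference between batch 3 and the rest was the largest of these 7 members, while in CPM the gap was wider for H1-2 and H2BC12.

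**Figure D2:**
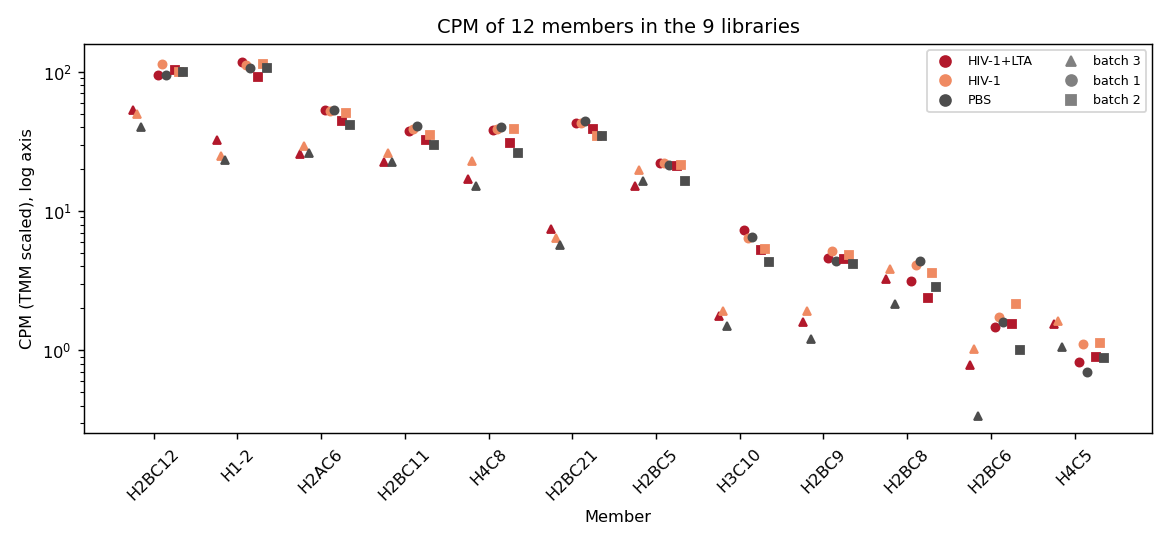
CPM (TMM scaled, log axis) of 12 members in each of the 9 libraries; symbols mark batches, with batch 3 left of batches 1 and 2 within each gene, and colours mark HIV-1+LTA, HIV-1 and PBS. The batch 3 triangles of H2BC21 lie at 5.70 to 7.39 CPM against 34.5 to 43.98 CPM in the other 6 libraries, while those of H4C5 lie at 1.06 to 1.63 CPM against 0.705 to 1.13 CPM.

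Since a longer transcript collects more counts, levels of different genes were set side by side per length. Divided by the length of the shortest annotated transcript that holds the stem-loop, the mean level was 168 CPM per kb for H2BC12, 111 for H1-2, 80.4 for H2AC6, 72.7 for H4C8, 66.1 for H2BC11, 40.1 for H2BC5 and 12.9 for H2BC21. Divided by all annotated exon bases, H2BC12 (168 CPM per kb) and H1-2 (111 CPM per kb) kept their places, and the other 5 lay between 12.9 and 30.3 CPM per kb. The position of H4C8 (72.7 or 13.7 CPM per kb) rests on which transcript is taken, and H2BC21 was last of the 7 by either length. H2BC21 has a single annotated exon of 2224 bases, which runs 1729 bases past its stem-loop. Its lengths are therefore the same, and no annotated form ending near the stem-loop was there to place it by.

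Of the 58 members with a stem-loop, 13 have an annotated transcript that ends more than 300 bases past it, a form that is not cut at the stem-loop. They included 5 of the 7 members at 10 CPM or more and had a median of 9.23 CPM per kb of the shortest transcript, or 1.93 by all exon bases, against 0.342 by either length for the other 45, of which H2BC12 and H1-2 exceeded 10 CPM. Whether the reads came from such longer transcripts was not tested, since the counts give no position in the gene. Divergent H2A and H2B neighbours, 9 pairs whose starts lie 169 to 250 bases apart, differed in how alike their levels were. By all exon bases, H2BC12 averaged 168 CPM per kb and its neighbour H2AC12 0.242, H2BC21 averaged 12.9 and H2AC20 0.397, and H2BC4 averaged 1.93 and H2AC6 25.01. H2BC14 and H2AC14, at 0.246 and 0.342 CPM per kb, were close, and H2BC1 and H2AC1 were at or near 0. The H2B gene was higher in 5 of the 9 pairs by all exon bases and in 6 by the shortest transcript; the pair that differed was H2BC15 with H2AC15.

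Members resemble each other and their neighbours, which limits what a count can be assigned to. Windows of 50 bases were taken from the shortest coding transcript of each member, and only exact matches in transcripts of other genes counted. A share of over 50% of the windows of 16 members also occurs in another gene. For H2BC12 it was 57.2%, shared with other H2B genes; for H4C14 it was 100%, shared with H4C15; for H1-2, H4C8 and H4C5 it was 0%. A share of 0% does not make every read of a gene unique, since longer transcripts and near matches were left out. Another annotated gene overlaps 27 members, H4C8, H2BC5, H2AC6 and H4C5 among them. The strand setting and the handling of reads that match several genes are not given in the sources used here, so counts of members with shared windows or overlaps are uncertain.

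The first comparison asked whether the virus changed these genes. With HIV-1 against PBS no member was called at an adjusted p below 0.05, and neither was any of the 16117 genes (background 0%; edgeR quasi-likelihood test with batch as a block, Benjamini-Hochberg adjustment; the lowest adjusted p of a member was 0.946). DESeq2 and limma-voom with the same block also called no member, and 1 and 0 genes. At an unadjusted p below 0.05, 7 of 40 members were higher with HIV-1 and 0 lower, against 2.57% of all genes higher and 1.63% lower. The median log2 fold change of the members was 0.19, that of all genes -0.0015. A value above 0 was found for 32 of the 40, including all 20 that averaged 1 CPM or more. All members were counted in the same libraries, so these counts are a description and not separate observations.

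The batches did not contribute alike. The median within-batch difference in log2 CPM, HIV-1 minus PBS, was -0.0044 in batch 1, 0.25 in batch 2 and 0.31 in batch 3, and it was above 0 for 19, 27 and 32 of the 40 members. Without batch 3 the median log2 fold change was 0.13, with no member called. The difference had the same direction in 3 of 3 batches for 11 members with higher values (16.3% of all genes) and 2 with lower values (16.9%). HIV-1 and PBS libraries did not overlap for 2 members, H4C5 and H4C2, both higher with HIV-1 (1.54% of all genes), and for 0 lower ones (1.19%).

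The H2B family held 4 of the 7 members with a low unadjusted p, H4 held 2 and H2A 1. H4C8, whose values are given above, had a log2 fold change of 0.36 ± 0.11 (SE; adjusted p = 0.946, edgeR). Its difference was -0.06 in batch 1, 0.58 in batch 2 and 0.58 in batch 3, and without the batch 1 libraries it passed at 0.58 (adjusted p = 0.0362, edgeR). H2BC6, an H2B gene, had 1.47, 1.55 and 0.784 CPM with HIV-1+LTA, 1.73, 2.15 and 1.02 CPM with HIV-1, and 1.59, 1.01 and 0.340 CPM with PBS in batches 1 to 3. The HIV-1 library was the highest of each batch, the log2 fold change was 0.79 ± 0.26 (SE; adjusted p = 0.946, edgeR), and the HIV-1 and PBS libraries overlapped across batches.

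H4C5, an H4 gene, had 0.819, 0.902 and 1.55 CPM with HIV-1+LTA, 1.10, 1.13 and 1.63 CPM with HIV-1, and 0.705, 0.877 and 1.06 CPM with PBS. All 3 HIV-1 libraries lay above all 3 PBS libraries, with a log2 fold change of 0.54 ± 0.20 (SE; adjusted p = 0.946, edgeR). H4C2, also an H4 gene, rested on few counts, at 12, 18 and 7 with HIV-1+LTA, 7, 9 and 14 with HIV-1, and 10, 8 and 0 with PBS. Its log2 fold change of 1.17 ± 0.67 (SE; adjusted p = 0.946, edgeR) was 0.65 without the PBS library of batch 3 and 0.60 without the HIV-1 library of batch 3. H3C8, an H3 gene, had 0.685, 0.606 and 0.495 CPM with HIV-1+LTA, 0.841, 0.967 and 0.381 CPM with HIV-1, and 0.769, 0.284 and 0.320 CPM with PBS. Its HIV-1 library was above the PBS library in each batch, by 0.12, 1.66 and 0.23 on the log2 scale, and its log2 fold change of 0.69 was 0.15 without batch 2. Of the 6 members with most counts, H4C8 had the largest value, given above. For the other 5 the log2 fold change was 0.19 ± 0.08 for H2BC12, 0.15 ± 0.06 for H2AC6, 0.12 ± 0.07 for H2BC11, 0.09 ± 0.10 for H1-2 and 0.02 ± 0.07 for H2BC21 (SE).

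**Figure D3:**
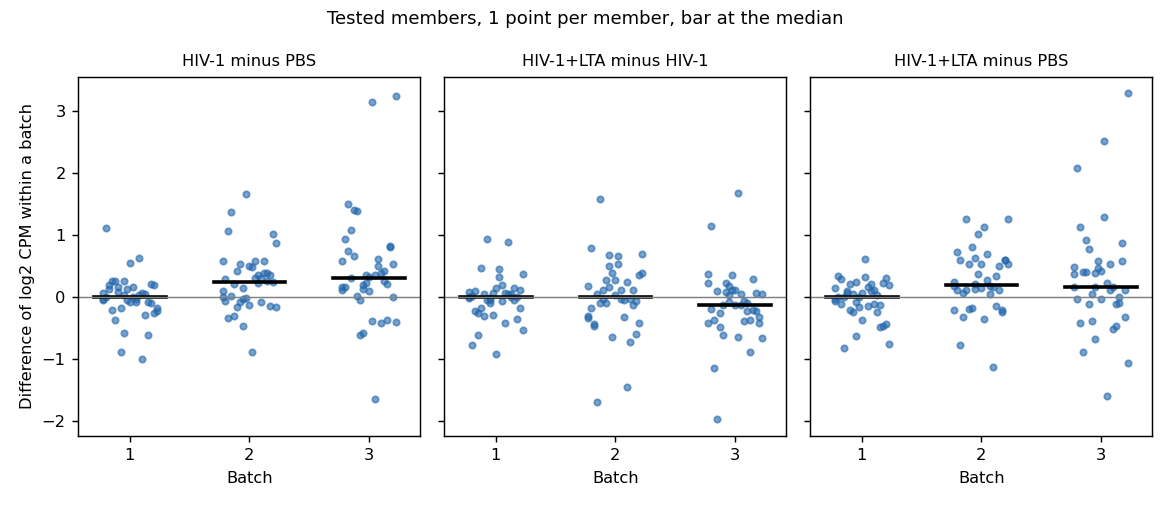
Each point is the difference in log2 CPM of 1 of the 40 tested members between 2 libraries of the same batch, by batch, for HIV-1 minus PBS, HIV-1+LTA minus HIV-1 and HIV-1+LTA minus PBS; bars mark medians. The median for HIV-1 minus PBS is -0.0044 in batch 1, 0.25 in batch 2 and 0.31 in batch 3, and the spread of single members is wider in batches 2 and 3.

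The second comparison set cells with virus and LTA against cells with virus alone. No member and no gene was called (background 0%, edgeR). With the block, DESeq2 called 247 genes and limma-voom 0, and neither called a member. Without the HIV-1+LTA library of batch 1, edgeR called 2390 genes and 1 member, H4C14, and without all of batch 1 it called 1567 genes and 2 members, H4C14 and H4C8; these members were lower. At an unadjusted p below 0.05, 0 members were higher and 2 lower, against 8.11% of all genes higher and 7.32% lower. The median log2 fold change was -0.025 (-0.074 to -0.0056 without 1 batch, and 0.025 without the HIV-1+LTA library of batch 1), that of all genes -0.0038, and 21 members lay below 0. The same direction in 3 of 3 batches was found for 9 members with lower values (17.1% of all genes) and 4 with higher values (16.7%). Libraries did not overlap for 3 members with lower and 1 with higher values (2.26% and 2.12% of all genes).

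H4C14 had 17, 15 and 4 counts with HIV-1+LTA, 23, 45 and 24 counts with HIV-1, and 44, 22 and 9 counts with PBS in batches 1 to 3. The HIV-1+LTA libraries lay below the HIV-1 libraries, at 0.253, 0.211 and 0.0825 CPM against 0.403, 0.750 and 0.415 CPM, and the PBS libraries, at 0.470, 0.272 and 0.180 CPM, lay across both. The log2 fold change, HIV-1+LTA over HIV-1, was -1.54 ± 0.43 (SE; adjusted p = 0.187, edgeR). It passed without the HIV-1+LTA library of batch 1 (-1.73, adjusted p = 0.0474, edgeR) and without all of batch 1 (-1.96, adjusted p = 0.0372, edgeR). Since every 50-base window of H4C14 also occurs in H4C15, a value for this gene alone is uncertain.

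H4C8 had a log2 fold change of -0.26 ± 0.11 (SE; adjusted p = 0.276, edgeR), with differences of -0.01, -0.35 and -0.42 in batches 1, 2 and 3; without batch 1 it passed at -0.37 (adjusted p = 0.0131, edgeR). This comparison shares its HIV-1 libraries with the one before, so the values of H4C8 and H4C14 in the 2 comparisons are not independent. H2BC8, an H2B gene, had 3.16, 2.38 and 3.26 CPM with HIV-1+LTA, 4.06, 3.62 and 3.82 CPM with HIV-1, and 4.37, 2.83 and 2.16 CPM with PBS. Its HIV-1+LTA libraries lay below its HIV-1 libraries, with a log2 fold change of -0.40 ± 0.19 (SE; adjusted p = 0.335, edgeR).

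Some members ran the other way. H2BC13, an H2B gene, had 0.313, 0.254 and 0.289 CPM with HIV-1+LTA, 0.245, 0.167 and 0.0692 CPM with HIV-1, and 0.246, 0.333 and 0.100 CPM with PBS. Its HIV-1+LTA libraries lay above its HIV-1 libraries, with a log2 fold change of 0.86 ± 0.47 (SE; adjusted p = 0.413, edgeR), or 0.46 without the HIV-1+LTA library of batch 3. H2AC17, an H2A gene, had 0.729, 0.733 and 0.206 CPM with HIV-1+LTA, 0.368, 0.600 and 0.173 CPM with HIV-1, and 0.705, 0.408 and 0.280 CPM with PBS. It was higher with LTA in each batch by 0.93, 0.27 and 0.22 on the log2 scale, but the groups overlapped. Its log2 fold change of 0.52 was 0.22 without the HIV-1 library of batch 1 and 0.91 without that of batch 2.

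The third comparison set virus with LTA against PBS. No member and no gene was called (background 0%, edgeR), 0 members had an unadjusted p below 0.05, against 8.67% of all genes higher and 8.13% lower. With the block, DESeq2 called 232 genes and limma-voom 0, and neither called a member. Without the HIV-1+LTA library of batch 1, edgeR called 2648 genes and 1 member, H2BC12, which was higher. The median log2 fold change was 0.13, against 0.029 without batch 2, 0.069 without batch 3 and 0.22 without batch 1. That of all genes was 0.0016, and 31 of 40 members lay above 0. By batch the median difference was 0.0052, 0.19 and 0.17 in batches 1, 2 and 3. The same direction in 3 of 3 batches was found for 9 members with higher values (17.5% of all genes) and 3 with lower values (16.3%). Libraries did not overlap for 1 member with higher values, H4C2, and 0 with lower values (2.06% and 1.76% of all genes). This comparison shares libraries with both others.

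H3C7, an H3 gene, had 6, 16 and 13 counts with HIV-1+LTA, 10, 7 and 6 with HIV-1, and 6, 10 and 2 with PBS. Its log2 fold change was 1.23 ± 0.58 (SE; adjusted p = 0.309, edgeR), and the groups overlapped. H4C2 had a log2 fold change of 1.32 ± 0.64 (SE; adjusted p = 0.32, edgeR), with each HIV-1+LTA library above each PBS library. H2AC14, an H2A gene, had 17, 22 and 5 counts with HIV-1+LTA, 10, 5 and 9 with HIV-1, and 22, 9 and 2 with PBS. It was higher with HIV-1+LTA in each batch once scaled (0.79 ± 0.52, SE; adjusted p = 0.459, edgeR), but the groups overlapped. Without the HIV-1+LTA library of batch 2 the value was 0.24, and without the PBS library of batch 1 it was 1.36.

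The abundant members gave tighter estimates. H2BC21 had a log2 fold change of 0.14 ± 0.07 and H2BC12 of 0.15 ± 0.08 (SE; adjusted p = 0.35 and 0.36, edgeR); H2BC12 passed without the HIV-1+LTA library of batch 1 (0.24, adjusted p = 0.0369). In the authors' deposited table, whose log2 fold changes match a DESeq2 fit of this comparison, H2BC12 has 0.14, H2BC21 0.13 and H1-2 0.13. That deposited table holds 59 members, of which 15 have an adjusted p and 0 pass 0.05, among 236 passing genes. The 3 treatment comparisons together thus gave no member that passed with all 9 libraries.

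The largest differences in these genes lay between batches. In batch 3 against batches 1 and 2, 21 of 40 members were lower and 1 was higher at an adjusted p below 0.05 (edgeR quasi-likelihood test with the groups in the model, Benjamini-Hochberg adjustment). The background was 36% of all genes lower and 35.2% higher, together 71.2%. The median log2 fold change was -0.84 for the members and -0.014 for all genes, and 36 members lay below 0. Within each of the 3 groups the direction was the same for 28 members with lower and 2 with higher values, against 41.9% and 40.5% of all genes. All 3 batch 3 libraries lay below the other 6 for 17 members, and above them for 0, against 30.2% and 30.6% of all genes. The 3 libraries of batch 3 are 1 batch, so these p-values compare these libraries and not repeated batches, and what distinguishes batch 3 is not given in the labels.

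By family, H2B genes were lower in 9 of 13 tested members, H2A in 6 of 9, H3 in 3 of 6, H4 in 2 of 8 and H1 in 1 of 4. The share of all genes was 36%. The 1 higher member was the H4 gene H4C5. Calls went with level: 17 of 20 members averaging at least 1 CPM were lower, against 38.3% of all genes at that level. Under 1 CPM 4 of 20 were lower (20%), no more than the 36% of all genes at any level. The share of all genes under 1 CPM was not computed. Most H1, H2A, H3 and H4 genes lie under 1 CPM, so these family counts cannot be separated from level. Summed CPM in batch 3 against batches 1 and 2 was 28.3 ± 4.62 against 110 ± 8.93 for H1, 5.16 ± 0.532 against 13.1 ± 1.61 for H3 and 109 ± 10.8 against 224 ± 14.8 for H2B (SD, n = 3 and 6). It was 31.9 ± 2.35 against 57.7 ± 5.27 for H2A and 21.9 ± 4.56 against 39.4 ± 5.96 for H4. The ratio of sums was lowest for H1, at 0.258, and highest for H4, at 0.556. The H1 sum is nearly that of H1-2 alone (mean 81.1 of 82.6 CPM), and over the 4 tested H1 genes the median log2 fold change was -0.11, with 2 above 0. The ratio of all members was 0.460 within HIV-1+LTA, 0.457 within HIV-1 and 0.407 within PBS, so the gap was present in each group.

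**Figure D4:**
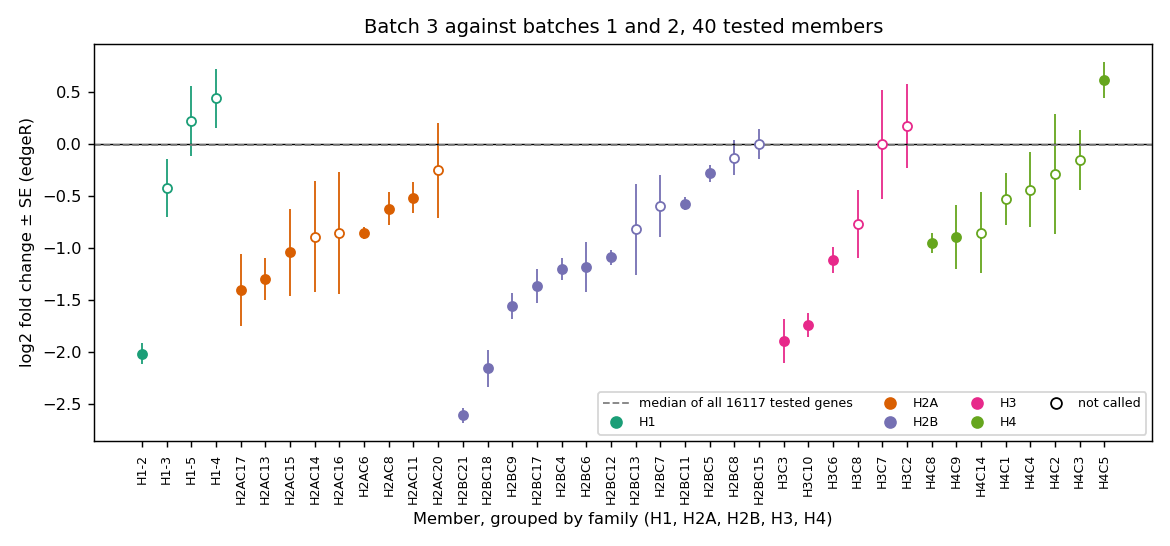
Log2 fold change with its SE (edgeR) of the 40 tested members in batch 3 against batches 1 and 2, grouped and coloured by family; filled points passed an adjusted p of 0.05, and the dashed line is the median of all 16117 tested genes. H2BC21 lies lowest at -2.61 and H4C5 highest at 0.61.

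H2BC21 averaged 6.48 ± 0.850 CPM in batch 3 and 39.7 ± 4.35 CPM in batches 1 and 2 (SD, n = 3 and 6). That is 6.11-fold lower (log2 -2.61 ± 0.07, SE; adjusted p = 9.54e-11, edgeR). H1-2 averaged 26.8 ± 4.82 CPM in batch 3 and 108 ± 9.01 CPM in batches 1 and 2, which is 4.06-fold lower (adjusted p = 5.89e-09, edgeR). H2BC12 averaged 47.5 ± 6.62 CPM in batch 3 and 101 ± 6.96 CPM in batches 1 and 2, 2.14-fold lower (adjusted p = 5.51e-08, edgeR). For these 3 genes no library of batch 3 reached the lowest of the other 6.

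H3C10 and H2BC9, of middling count, were also lower. H3C10, an H3 gene, had 7.34, 5.23 and 1.75 CPM with HIV-1+LTA, 6.41, 5.34 and 1.92 CPM with HIV-1, and 6.56, 4.31 and 1.49996 CPM with PBS in batches 1, 2 and 3 (log2 -1.75 ± 0.12, SE; adjusted p = 7.11e-08, edgeR). H2BC9, an H2B gene, had 4.57, 4.52 and 1.59 CPM with HIV-1+LTA, 5.18, 4.84 and 1.90 CPM with HIV-1, and 4.36, 4.19 and 1.20 CPM with PBS (log2 -1.57 ± 0.13, SE; adjusted p = 3.34e-07, edgeR). In both, the treatments spread far less than the batches. H2BC18 and H3C3, named after their values were seen, fell by 2.16 and 1.90 on the log2 scale (adjusted p = 4.56e-07 and 5.49e-06, edgeR).

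Smaller shifts were seen in others of high level. H4C8 averaged 18.3 ± 3.95 CPM in batch 3 and 35.4 ± 5.82 CPM in batches 1 and 2, and H2AC6 27.0 ± 2.06 CPM in batch 3 and 49.1 ± 4.99 CPM in batches 1 and 2 (SD, n = 3 and 6). H2BC11 fell by 0.58 and H2BC5 by 0.29 on the log2 scale (adjusted p = 5.08e-06 and 0.00716, edgeR). Some members of lower level, similar to that of H2BC9, did not pass. H2BC15, an H2B gene, averaged 3.08 ± 0.382 CPM in batch 3 and 3.13 ± 0.484 CPM in batches 1 and 2 (adjusted p = 0.98, edgeR). H2BC8 averaged 3.08 ± 0.846 CPM in batch 3 and 3.40 ± 0.755 CPM in batches 1 and 2, a difference within the spread of its libraries (adjusted p = 0.484, edgeR). H4C5 averaged 1.41 ± 0.307 CPM in batch 3 and 0.923 ± 0.166 CPM in batches 1 and 2, and rose by 0.61 ± 0.17 on the log2 scale (SE; adjusted p = 0.00803, edgeR). That call ended without the HIV-1+LTA library of batch 3 (0.49, adjusted p = 0.068), and its libraries overlapped between batches.

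The genomic classes described above were set beside this and beside the shares of all genes, 36% lower and 35.2% higher. Of tested members with a transcript annotated past the stem-loop, 9 of 11 were lower in batch 3 (median -0.96), and of those without 9 of 24 were lower and 1 higher (median -0.70). The 9 of 24 was near the share of all genes that were lower. The difference between these 2 classes was not tested, and their levels differ, as given above. Of the 21 tested members with no overlapping gene, 11 were lower. Of the 17 tested members that share no window with another gene, 7 were lower and 1 higher, against 14 of the 21 that share some. The 7 of 17 was near the share of all genes that were lower. Both chromosomes held lower members, with 2 of 4 tested on chromosome 1 and 19 of 34 on chromosome 6.

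Promoters are shown for H2BC21, H1-2 and H2BC12, which were lower in batch 3, and for H4C5, which was higher. RefSeq (GRCh38.p14) gave windows of 250 bases before to 50 after the start for 61 members. Capitals mark matches, on either strand, to a set of 4 motifs. The TATA box was searched as TATAAA. The CCAAT box was searched by the letters of its name. The octamer, which POU2F1 binds, was searched as ATTTGCAT. The box of the H1 family was searched as AAACACA. Neighbouring matches can overlap, as do the TATA box matches on both strands near the upstream end of the H2BC12 window.
H2BC21, chr1:149886633-149886932, minus strand: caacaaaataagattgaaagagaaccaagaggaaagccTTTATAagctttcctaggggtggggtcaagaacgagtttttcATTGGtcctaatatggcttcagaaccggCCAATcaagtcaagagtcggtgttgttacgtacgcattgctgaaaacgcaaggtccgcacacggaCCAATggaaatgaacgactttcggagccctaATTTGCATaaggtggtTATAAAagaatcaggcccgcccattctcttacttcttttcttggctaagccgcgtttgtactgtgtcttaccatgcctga
H1-2, chr6:26056421-26056720, minus strand: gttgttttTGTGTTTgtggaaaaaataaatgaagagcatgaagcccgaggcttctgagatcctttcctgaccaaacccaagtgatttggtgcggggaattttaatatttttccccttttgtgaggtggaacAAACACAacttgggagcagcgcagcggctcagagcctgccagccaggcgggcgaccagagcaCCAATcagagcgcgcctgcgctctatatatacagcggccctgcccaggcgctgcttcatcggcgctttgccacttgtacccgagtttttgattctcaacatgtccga
H2BC12, chr6:27146809-27147108, minus strand: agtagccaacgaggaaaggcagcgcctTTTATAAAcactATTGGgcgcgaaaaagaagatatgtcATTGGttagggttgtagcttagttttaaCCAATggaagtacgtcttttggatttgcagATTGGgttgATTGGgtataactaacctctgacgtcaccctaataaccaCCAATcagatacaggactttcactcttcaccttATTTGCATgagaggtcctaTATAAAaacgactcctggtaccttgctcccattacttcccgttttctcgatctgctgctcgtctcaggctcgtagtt
H4C5, chr6:26204360-26204659, plus strand: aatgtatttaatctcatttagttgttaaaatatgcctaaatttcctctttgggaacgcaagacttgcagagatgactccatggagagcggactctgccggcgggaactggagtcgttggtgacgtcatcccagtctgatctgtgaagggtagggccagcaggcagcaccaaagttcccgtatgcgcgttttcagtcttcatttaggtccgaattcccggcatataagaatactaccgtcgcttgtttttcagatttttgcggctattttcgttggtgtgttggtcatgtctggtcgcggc

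The letters differ by family. TATAAA was found in 67.2% of the 61 member windows, against 11.8% of 27244 windows of all other genes, and CCAAT in 85.2%, against 35.6%. ATTTGCAT was found in 82.4% of H2B and 73.3% of H2A windows, against 1.71% of all other genes, and in 0 of the 12 H4 and 6 H1 windows. AAACACA was found in all 6 H1 windows, against 5.74% of all other genes. CCAAT was in all windows of H1, H2A, H2B and H3 genes but in 25% of the H4 windows. The H4C5 window held none of the 4 motifs, which says only that these letters are not in it. The window of H4C8, which was lower in batch 3 (log2 -0.96 ± 0.10, SE; adjusted p = 2.41e-06, edgeR), held none of them either.

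Genes that make and process histone mRNA did not move as 1 group with the members. Of 18 tested genes of that list, 10 were higher and 6 lower in batch 3 (median 0.16). The shares of all genes were 35.2% higher and 36% lower. SLBP, which binds the stem-loop, averaged 74.4 ± 3.25 CPM in batch 3 and 157 ± 2.31 CPM in batches 1 and 2 (log2 -1.07, adjusted p = 1.68e-09, edgeR). CPSF2, a subunit of the cleavage complex, fell by 1.05 and CASP8AP2, a histone locus body protein, by 0.65 on the log2 scale (adjusted p = 4.42e-09 and 4.81e-08, edgeR). NPAT, the transcriptional coactivator, was higher at 77.3 ± 4.16 CPM against 49.7 ± 1.56 CPM (log2 0.64, adjusted p = 1.13e-07, edgeR), as was NCBP2, of the cap-binding complex (log2 0.77, adjusted p = 3.28e-08, edgeR). NPAT was named after its values were seen.

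Of 27 genes of S phase and DNA replication, 5 were higher and 12 lower in batch 3 (35.2% and 36% of all genes). Their median was -0.11. The 4 with the lowest p were E2F1, a transcription factor (-0.42), GINS4, of the replicative helicase (0.44), MCM6, likewise (-0.42), and TYMS, which makes thymidylate (-0.49). PCNA, the polymerase clamp, averaged 355 ± 16.1 CPM in batch 3 and 330.2 ± 12.3 CPM in batches 1 and 2 (adjusted p = 0.0638, edgeR). No gene of this list had a difference as large as the members' median.

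For the lists that follow, the background in batch 3 was 35.2% of all genes higher and 36% lower. Replication-independent histone variants and histone chaperones lay near it. Of 12 tested replication-independent variants, 4 were higher and 5 lower in batch 3 (median -0.14), with MACROH2A2, of the large H2A variants, at -2.09, the H2A.Z gene H2AZ2 at -0.96, the linker histone H1-10 at -0.75 and the other macroH2A gene MACROH2A1 at 0.64 on the log2 scale. Of 14 tested histone chaperones, 5 were higher and 4 lower (median 0.01), with CHAF1B, of the assembly factor CAF-1, at -1.03, SSRP1, of the FACT complex, at 0.45, the H2A and H2B carrier NAP1L1 at 0.37 and the importin IPO4 at 0.75. Of 8 tested small structured RNAs without a poly(A) tail, 5 were higher and 1 lower (median 0.87). RN7SL1, the signal recognition particle RNA, was at 1.01 and the Cajal body RNA SCARNA10 at -0.64; the others averaged under 2 CPM. Of 13 mitochondrially encoded mRNAs, 6 were higher and 2 lower (median 0.06), with ND1, ND3, ND4L and ND4, all of respiratory complex I, at 0.52, 0.28, 0.36 and 0.32.

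In the 3 treatment comparisons none of these 6 lists had a called gene (edgeR). At an unadjusted p below 0.05, HIV-1 against PBS gave UPF1 of the histone mRNA list (log2 0.13) and CCNE1 and MCM5 of the S phase list (0.18 and 0.11), all higher (2.57% of all genes). It also gave 1 small structured RNA that was lower (1.63% of all genes), and 0 variants or chaperones. With HIV-1+LTA against HIV-1, the S phase list gave 1 higher and 2 lower and the histone mRNA list 0, against 8.11% of all genes higher and 7.32% lower. The variants gave 2 higher, the chaperones 1 higher and 1 lower, and the small structured RNAs 1 lower. With HIV-1+LTA against PBS, the S phase list gave 3 higher and 1 lower and the histone mRNA list 2 higher and 1 lower, against 8.67% and 8.13% of all genes. The variants gave 2 higher and 1 lower, the chaperones 1 higher, and the mitochondrial mRNAs 1 lower. The mitochondrial mRNAs had 9 of 13 lower at an unadjusted p below 0.05 with HIV-1 against PBS (1.63% of all genes), and 9 higher with HIV-1+LTA against HIV-1 (8.11%), 2 comparisons that share the HIV-1 libraries.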

How the data were processed

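Per the series' design text and the submitters' processing notes, fastp, STAR, SAMtools and HTSeq were used for RNA-seq on hg19, and deepTools, bedtools and Bowtie2 for ChIP-seq. Versions, strand setting and RNA selection are not given in the sources used here. The deposited count file holds unnormalised whole numbers per gene symbol, with totals of 50.6 to 90.6 M. The authors' DESeq2 table, also deposited, holds a mean signal (size-factor-scaled counts), log2 fold changes with standard errors in log2, a Wald score and a p-value with its adjusted p-value. That deposited table names no comparison: a DESeq2 fit with batch and group for HIV-1+LTA against PBS gave all 19990 of its log2 fold changes within 0.01. The deposited peak list gives positions, with no other value per peak.

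Genes were tested with edgeR 4.0.16 by quasi-likelihood (R 4.3.3, filterByExpr, TMM), in 1 fit of 9 libraries with group and batch, and Benjamini-Hochberg adjustment over all 16117 genes at 0.05. The batch block was used because the deposited table follows that model and the labels make the replicate number the batch; the deviations of same-numbered libraries from their group means correlated at 0.705 to 0.917 in 9 pairs. Pairs across batches 1 and 2 reached 0.764, so the correlation sets batch 3 apart but not batch 1 from batch 2. Batch 3 was tested against the mean of batches 1 and 2 in the same fit. Within-batch differences used log2 CPM with a prior count of 2. The test was checked on counts simulated from its own fitted model, with libraries drawn independently. That check cannot show whether the spread of the real libraries is technical. Repeats used DESeq2 1.42.0 or limma-voom (limma 3.58.1), left out the block, changed the scaling or the filter, fitted the 2 groups alone, or left out each library or batch. The members, the 6 gene lists and the markers were chosen with earlier results of these data known. Members named with values were the 6 highest by mean CPM, the 3 with the lowest p per treatment comparison, the 6 with the lowest p for batch 3 and up to 4 per comparison with the same direction in 3 batches. Of other lists up to 4 passing genes were named. The batch 3 values of H2BC5, H2BC15, H2BC18, H3C3, NPAT and PCNA were given outside these rules. Lengths, overlaps, 50-base windows and stem-loops came from GRCh37 with GENCODE v44 lifted to it, in which H2BC7, H2BC8 and H4C6 were not found; the annotation the authors counted with may differ. Promoters came from RefSeq.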

Additional observations from a re-analysis of the deposited data

How the results depend on the processing

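With no replicate block, edgeR and DESeq2 called 0 genes and 0 members in each treatment comparison, as did the block for members. Genes called with the DESeq2 replicate block numbered 1 for HIV-1 against PBS, 247 for HIV-1+LTA against HIV-1, then 232 for HIV-1+LTA against PBS, and with DESeq2 at a total count of at least 10, chosen after seeing the data, 3, 244 and 236; members called stayed at 0. Without the filter, edgeR called 1 gene each for HIV-1 against PBS and HIV-1+LTA against HIV-1, and 2 for HIV-1 against PBS in a fit of those groups alone. Leaving out 1 library or batch gave 0 to 5 genes for HIV-1 against PBS, 0 to 2390 for HIV-1+LTA against HIV-1, then 0 to 2648 for HIV-1+LTA against PBS, the highest 2 without the HIV-1+LTA library of batch 1, and 0 to 1, 0 to 2 and 0 to 1 members. Without batch 1 the gene counts were 5, 1567 and 1733, and without the PBS library of batch 1 HIV-1+LTA against PBS gave 90. The cause was not tested. The members' median ran from 0.12 to 0.25, -0.10 to 0.025 and 0.029 to 0.22 in these repeats; scaling by library size alone put the second at 0.0068.

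In batch 3, 18 to 26 members were called over all fits, and 11 among members with no overlapping gene, a smaller set chosen after seeing the data. Their median was -1.001 with library size only, where all genes shifted to -0.17 and 4264 genes were higher and 7367 lower against 5669 and 5809 with TMM; the members' distance from all genes remained -0.83. With genes of at least 1 CPM it was -1.12 over fewer members, and leaving out a library gave -0.87 to -0.60. Over the 18 members repeated one by one, 15 values became significant and 1 lost it (H4C5) under some setting, and 53 uncalled values changed sign; the 18 to 26 above cover all tested members. Most H1, H2A, H3 and H4 genes lie under 1 CPM, where a few counts decide a value.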

Other observations

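The ChIP-seq peak list, which belongs to the sample titled as HIV-1-treated Lx2 cells (its cell line label reads Lx5), holds 166 peaks. None overlaps a histone gene described here. The nearest lies at chr1:151043340-151043545 on hg19, 1.18 Mb from H2AC21. The target of the antibody is not given in the sources used here, and no value per peak or control list was used. The series also holds a ChIP sample titled as PBS treatment of Lx2 cells, and no peak list of that sample was used.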
